A study of Mus musculus with 23 samples.

Results

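The 10 genes described here encode the cohesin complex and the proteins that load and release it. They were taken by name: Smc1a, Smc3, Rad21, Stag1 and Stag2 for the ring, Nipbl and Mau2 for loading, and Wapl, Pds5a and Pds5b for release. All 10 were found among 55413 genes of the GENCODE annotation, of which 13608 held at least 1 site. A site is a single nucleotide at which CTCF iCLIP2 reads stopped. Each member was given the sites on its own strand between its annotated start and end.

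The iCLIP2 libraries came from nuclei of mouse E14 embryonic stem cells (ESCs) and of neural progenitor cells (NPCs), for which the same lines were differentiated on laminin for 2 days. All cells carried an mAID-eGFP tag on both Ctcf alleles and the OsTIR1(F74G) degrader at Rosa26, and were given 1 µM 5-Ph-IAA for 24 hours to remove the tagged CTCF. A Flag-Halo-CTCF rescue was induced over the same time from a doxycycline-driven transgene at Tigre with 1 µg/mL doxycycline. The rescue was wild type (WT) or a zinc finger 1 mutant (ΔZF1), and each rescue line was 1 clone. UV was given at 254 nm and 400 mJ/cm2, while the controls without UV (noXL) came from the WT rescue line alone. NPC WT had 3 libraries, and the other 5 groups had 4 each. Site calling was done on the merged libraries, so each group had 1 list and no difference between groups could be tested. The 95% intervals given with the values cover counting error only.

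Cohesin is a ring of SMC1A, SMC3 and the kleisin RAD21, to which either STAG1 or STAG2 is bound. NIPBL with MAU2 loads the ring onto DNA and drives loop extrusion, WAPL with PDS5A or PDS5B opens the ring, and extrusion stalls where cohesin meets CTCF. The measurements here are not of these proteins. They show where reads of the CTCF immunoprecipitate stopped on the RNAs of their genes, and the stops in the noXL lists were not made by UV. This signal also depends on how much of each RNA was present. RNA levels were not analysed here.

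The lists held 107227 to 451137 sites, and 94.0% to 96.7% of them lay in genes. Sites on a uridine, the base that UV at this wavelength crosslinks most readily, made up 60.6% of the genic sites of ESC WT and 64.6% of those of NPC WT, against 28.3% in ESC noXL and 27.9% in NPC noXL. The ESC marker Esrrb held 460 sites in ESC WT and 0 in each NPC list, and the progenitor marker Nes held 2 ESC WT sites and 28 NPC WT sites. The progenitor markers Sox1 and Pax6 held 0 sites in both WT lists. The read depth behind the lists is unknown.

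The cohesin sequences are shown first because the later results refer to them. They were read from the GRCm38 (mm10) genome on the strand of the gene, in DNA letters with T for uridine, 5′ to 3′. The first set holds the 100 nt outside untranslated regions (UTRs) with most ESC WT sites in Wapl, Nipbl and Rad21. Capitals mark ESC WT sites.

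Wapl, chr14:34674849-34674948, plus strand: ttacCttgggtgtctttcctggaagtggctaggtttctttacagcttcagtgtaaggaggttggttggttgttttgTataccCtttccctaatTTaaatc

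Nipbl, chr15:8322518-8322617, minus strand: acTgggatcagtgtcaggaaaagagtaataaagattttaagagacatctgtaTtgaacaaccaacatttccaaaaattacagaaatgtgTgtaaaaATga

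Rad21, chr15:51968443-51968542, minus strand: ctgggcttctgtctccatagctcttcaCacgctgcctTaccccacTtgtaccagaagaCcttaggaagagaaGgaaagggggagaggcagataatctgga

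The Wapl window lay in intron 1 and held 5 ESC WT sites, 1 ESC noXL site and 0 sites of the other 4 lists. The Nipbl window lay in exon 30 of 47 and the Rad21 window mostly in exon 10 of 14, and each held 5 ESC WT sites. In both, 2 ESC noXL sites also fell inside the window.

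The next set holds the 100 nt with most NPC WT sites in Pds5a and in the paralogs Stag1 and Stag2. These windows were chosen after their values were seen. Capitals mark NPC WT sites.

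Pds5a, chr5:65656317-65656416, minus strand: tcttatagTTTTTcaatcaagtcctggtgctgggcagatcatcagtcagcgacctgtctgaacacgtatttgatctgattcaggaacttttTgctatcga

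Stag1, chr9:100757690-100757789, plus strand: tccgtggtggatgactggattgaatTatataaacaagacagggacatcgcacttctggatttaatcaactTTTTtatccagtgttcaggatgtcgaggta

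Stag2, chrX:42217327-42217426, plus strand: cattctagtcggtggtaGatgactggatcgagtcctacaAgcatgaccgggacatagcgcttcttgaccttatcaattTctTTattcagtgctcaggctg

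In Pds5a, 5 of the 6 NPC WT sites were the run of 5 uridines that opens exon 8 of 33, directly after the AG of the splice acceptor. The same window held 6 ESC WT sites, 3 ESC ΔZF1 sites and 0 sites of NPC ΔZF1 and of both noXL lists. The Stag1 and Stag2 windows both lay almost wholly in exon 5 of 34. Without gaps, 71 of 92 aligned bases (77.2%) were identical. In that alignment 4 of 5 Stag1 sites lay within 3 nt of a Stag2 site, and 3 of 5 Stag2 sites within 3 nt of a Stag1 site. Most of these sites were on uridines near the end of the exon. The Stag1 window also held 4 ESC WT sites and 3 ESC noXL sites, whereas the Stag2 window held 1 ESC ΔZF1 site and 0 sites of the other 4 lists.

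The last set holds the 21 nt around the 5′ UTR positions that carried the highest scores of Mau2, Pds5b and Stag1, and around the best site of Pds5a. The capital marks the site.

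Mau2 5′ UTR, chr8:70042692-70042712, minus strand: aggcggcttgTtgttgtgcgg

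Pds5b 5′ UTR, chr5:150673844-150673864, plus strand: gggggggcggGaggaggcgat

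Stag1 5′ UTR, chr9:100643601-100643621, plus strand: tgcagcggcgCcattggcgtg

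Pds5a coding exon 8, chr5:65656316-65656336, minus strand: caggaactttTtgctatcgat

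The score is the value that PureCLIP, the site caller, gave each site. At the Pds5b position, a G 115 nt from the annotated start, the highest score of any cohesin site (67.2) was that of ESC noXL. The Mau2 position, 32 nt from its start, had a score of 49.2 in ESC noXL and 37.3 in NPC WT. The best Pds5a site in ESC WT, a uridine of exon 8 with a score of 43.2, had no counterpart at that nucleotide without UV. Among these genes, a high score was thus found with and without UV.

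Summed over the 10 genes, cohesin RNAs held a nearly constant share of each list. For ESCs the sum was 1790 WT sites (0.417% of genic sites), 893 ΔZF1 sites (0.410%) and 620 noXL sites (0.411%). For NPCs it was 916 WT sites (0.398%), 573 ΔZF1 sites (0.374%) and 448 noXL sites (0.439%). The share without UV lay between the ΔZF1 and WT shares in ESCs and was the highest of the NPC lists. The members differed in how their sites were spread over exons and introns, and Stag2 in which cell type held them.

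**Figure D1:**
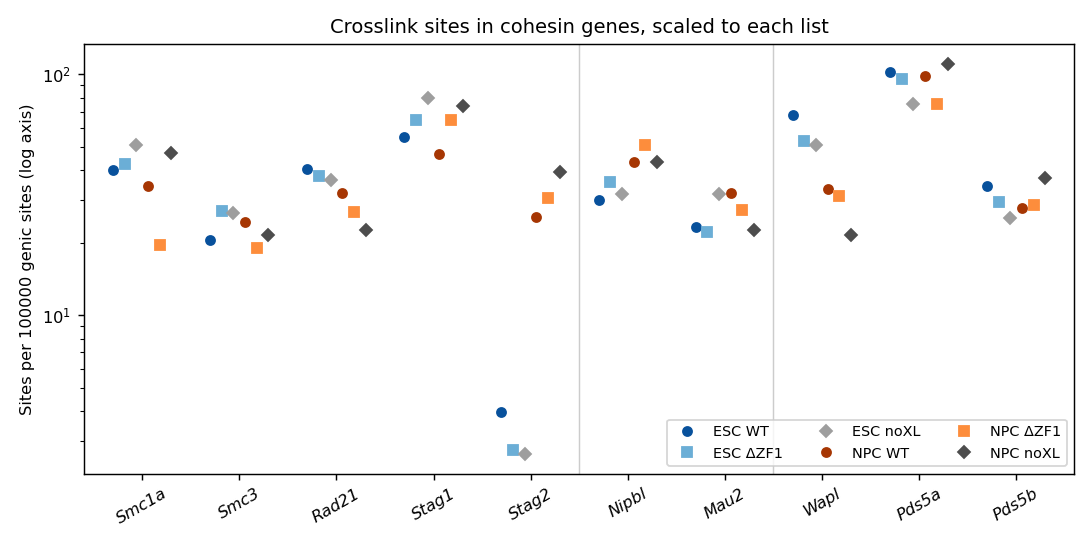
Sites per 100000 genic sites of the list (log axis) for each cohesin gene. Each symbol is 1 of the 6 lists, and vertical lines part ring, loader and release genes. Stag2 stands apart, with 2.65 to 3.96 in the ESC lists and 25.6 to 39.2 in the NPC lists.

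Among the ring genes, Smc1a (chrX:152016428-152062694, plus strand), one of the paired ATPases of the ring, held 172 WT, 92 ΔZF1 and 77 noXL sites in ESCs and 79 WT, 30 ΔZF1 and 48 noXL sites in NPCs. Of the ESC WT sites, 98 lay in introns, and 89 of those fell in intron 19, which is 10810 nt long. Intron 19 also held 40 of the 49 intron sites in ESC noXL and 25 of 34 in NPC noXL.

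Smc3 (chr19:53600398-53645833, plus strand), the other ATPase, held 88 WT, 59 ΔZF1 and 40 noXL sites in ESCs and 56 WT, 29 ΔZF1 and 22 noXL sites in NPCs. Its sites were mostly exonic in each list. Only 7.95% of its ESC WT sites were intronic, and coding exons held 72 of the 88. Smc1a and Smc3 have coding regions of like length, and their ESC WT density there was 17.6 and 19.7 sites per kb of coding exon.

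Rad21 (chr15:51962240-51991747, minus strand), the kleisin that separase cleaves, held 173 WT, 82 ΔZF1 and 55 noXL sites in ESCs and 74 WT, 41 ΔZF1 and 23 noXL sites in NPCs. Introns held 61.8% of its ESC WT sites and 44.6% of its NPC WT sites. Per length its introns were the most densely hit of the 10 genes in ESC WT, at 4.23 sites per kb of intron, while its exons held 15.6 sites per kb of exon.

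Stag1 (chr9:100597798-100959375, plus strand) held 235 WT, 140 ΔZF1 and 120 noXL sites in ESCs and 107 WT, 99 ΔZF1 and 75 noXL sites in NPCs. It is the longest member at 362 kb, and its introns held 0.357 sites per kb of intron in ESC WT. Over the 6 lists together, 9 of its 776 sites also lay in another annotated gene on the same strand.

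Stag2 (chrX:42149317-42277185, plus strand), the paralog that competes with STAG1 for the ring, held 17 WT, 6 ΔZF1 and 4 noXL sites in ESCs. In NPCs it held 59 WT, 47 ΔZF1 and 40 noXL sites. All 3 NPC lists were higher than all 3 ESC lists, although each NPC list was shorter than its ESC counterpart. The coding regions of Stag1 and Stag2 have nearly the same length, and per kb of coding exon Stag1 held 19.3 sites in ESC WT against 2.89 in Stag2. In NPC WT the same densities were 11.7 for Stag1 and 10.3 for Stag2.

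Nipbl (chr15:8290617-8444463, minus strand), the loader and extrusion factor, held 129 WT, 78 ΔZF1 and 48 noXL sites in ESCs and 99 WT, 78 ΔZF1 and 44 noXL sites in NPCs. Although the gene spans 154 kb, 104 of its 129 ESC WT sites were in coding exons, and its introns held 0.111 sites per kb of intron. Its partner Mau2 (chr8:70016123-70042734, minus strand) held 100 WT, 48 ΔZF1 and 48 noXL sites in ESCs and 74 WT, 42 ΔZF1 and 23 noXL sites in NPCs. Mau2 was mostly exonic too, with 26.0% of ESC WT sites in introns.

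Of the release factors, Wapl and Pds5a held the most sites of the 10 genes in ESC WT. Wapl (chr14:34673928-34747983, plus strand), which opens the ring, held 291 WT, 115 ΔZF1 and 77 noXL sites in ESCs and 77 WT, 48 ΔZF1 and 22 noXL sites in NPCs. Pds5a (chr5:65605721-65698273, minus strand), a HEAT-repeat protein that works with WAPL, was the highest in NPC WT too. Its counts were 437 WT, 209 ΔZF1 and 113 noXL in ESCs and 227 WT, 115 ΔZF1 and 113 noXL in NPCs. Of its 1214 sites, 21 also lay in another annotated gene on the same strand.

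Pds5b (chr5:150673739-150810690, plus strand), the paralog of Pds5a, held 148 WT, 64 ΔZF1 and 38 noXL sites in ESCs and 64 WT, 44 ΔZF1 and 38 noXL sites in NPCs. The paralogs differed in where the sites lay: introns held 57.9% of Pds5a and 38.5% of Pds5b sites in ESC WT, but 49.8% and 12.5% for NPC WT. Per kb of coding exon, ESC WT held 22.9 sites in Pds5a and 14.5 in Pds5b.

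Compared with all genes that held a site, 9 of the 10 members were in the upper part of the ESC WT list, between the percentile 87.7 of Smc3 and the percentile 99.5 of Pds5a. Stag2 was at the percentile 44.2 in ESC WT and at 91.0 in NPC WT. These percentiles are of site counts and are not corrected for gene length.

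**Figure D2:**
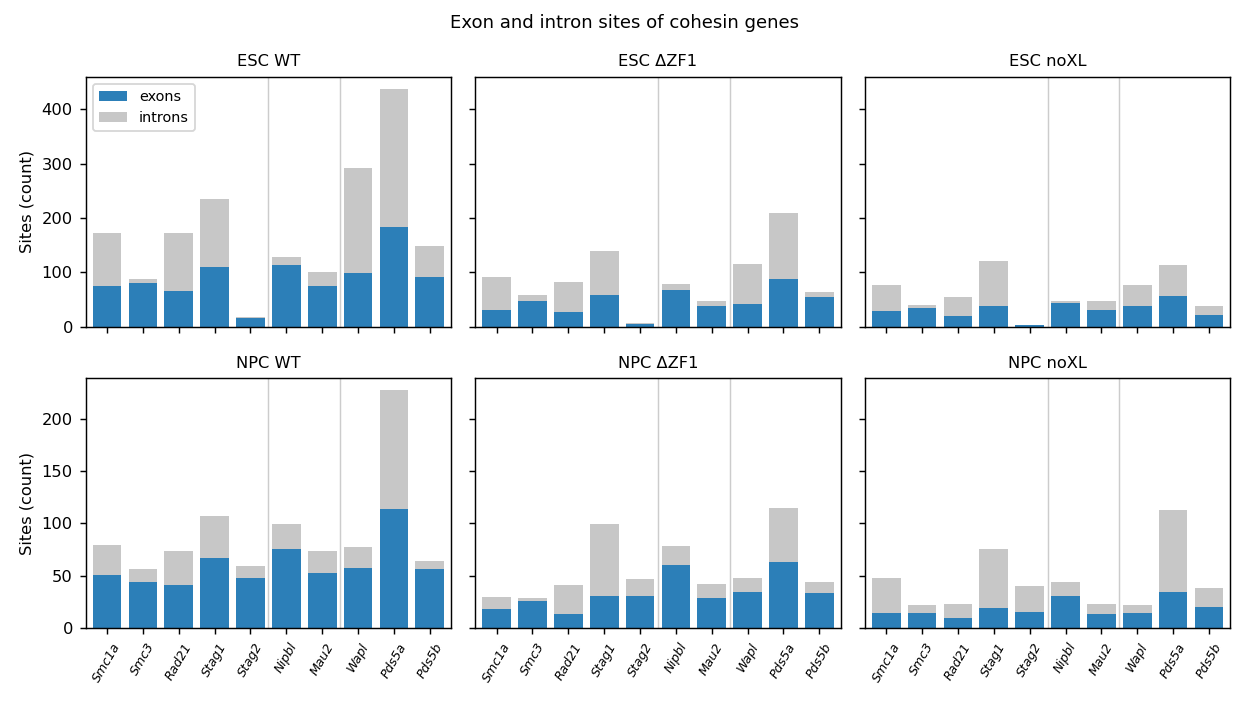
Number of sites in exons (blue) and introns (grey) of each cohesin gene in the 6 lists. The upper row (ESC) and the lower row (NPC) have different vertical scales. In ESC WT, Wapl held 192 intron and 99 exon sites, and in NPC WT 20 and 57.

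The first comparison asked whether sites in cohesin RNAs differed between the ΔZF1 and WT rescues in ESCs. Scaled to the length of the lists, their sum was nearly equal. This scaling removes any fall in sites that all genes share, so it shows only whether these genes stood apart from other genes. Log2 ratios were taken with 1 site added to each count and scaled by how many genic sites each list held, for each gene whose 2 counts added up to 20 or more. The summed log2 ratio of ESC ΔZF1 over ESC WT was -0.02 (-0.14 to 0.09), while the median of 6518 genes was 0.04. The ratio of the raw counts was -1.0 on the log2 scale, as the ΔZF1 list was shorter.

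Of the 10 members, 0 were at least 2-fold higher and 0 at least 2-fold lower. Of all genes compared, 6.84% were at least 2-fold higher and 5.45% at least 2-fold lower. The members' log2 ratios ran from -0.38 for Stag2, with 6 and 17 sites, to 0.41 for Smc3, with a median of -0.07. Wapl was the member whose interval lay off 0, at -0.35 (-0.67 to -0.05), and 22.1% of genes had such intervals.

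Among intron sites, the lowest ratio was that of Pds5b, with 9 in ESC ΔZF1 against 57 in ESC WT and 16 in ESC noXL. Scaled to the intron sites of the lists, the log2 ratio of ESC ΔZF1 over ESC WT was -1.49 (-2.61 to -0.62). Its exon sites numbered 55 and 91, with a scaled log2 ratio of 0.23 (-0.26 to 0.70). Stag1 introns went the other way, with 81 against 125 sites and a scaled log2 ratio of 0.43 (0.02 to 0.82). The other 6 members with at least 20 intron sites had intervals that included 0, and 33.3% of genes had intron intervals off 0. Exon ratios of all 10 members had intervals that included 0, against 17.7% of genes with exon intervals off 0.

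In NPCs, the summed log2 ratio of NPC ΔZF1 over NPC WT was -0.09 (-0.24 to 0.06) the median member was at -0.15, and the median of 5274 genes was -0.04. Again 0 of 10 members were at least 2-fold higher, against 5.76% of genes, and 0 at least 2-fold lower, against 7.36% of genes. Smc1a was lowest at -0.78 (-1.41 to -0.21), with 30 sites against 79. Pds5a was at -0.39 (-0.72 to -0.07) and Stag1 at 0.48 (0.08 to 0.87), and the other 7 members had intervals that included 0. Of all genes, 20.5% had intervals off 0.

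In Smc1a, Pds5a and Stag1 the intron interval lay off 0 and the exon interval did not. Among all genes 36.5% of intron and 13.5% of exon intervals lay off 0. Smc1a held 12 intron sites in NPC ΔZF1 and 28 in NPC WT, a scaled intron log2 ratio of -1.13 (-2.15 to -0.23), with an exon log2 ratio of -0.59 (-1.41 to 0.12). Pds5a held 52 intron sites in NPC ΔZF1 and 113 in NPC WT, a scaled intron log2 ratio of -1.07 (-1.56 to -0.62), while its exon log2 ratio was 0.02 (-0.44 to 0.45). Stag1 held 68 intron sites in NPC ΔZF1 and 40 in NPC WT, a scaled intron log2 ratio of 0.78 (0.24 to 1.36), with an exon log2 ratio of -0.23 (-0.86 to 0.36). Nipbl was the member whose exon interval lay off 0, at 0.54 (0.05 to 1.03). NPC WT was made from 3 libraries and NPC ΔZF1 from 4. In genic sites as a whole, introns held 26.9% in NPC WT and 39.6% in NPC ΔZF1, and the part of that shift in these values was not tested.

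**Figure D3:**
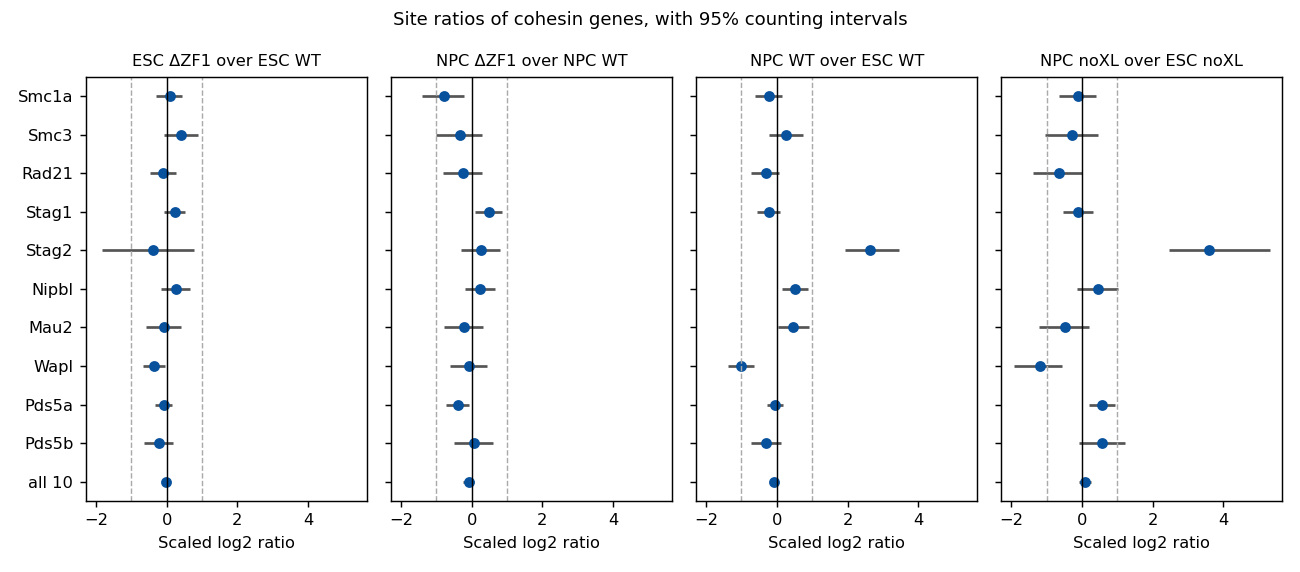
Scaled log2 ratio of sites for each cohesin gene and for all 10 summed, in 4 comparisons. Points are log2 ratios, bars are 95% counting intervals, and dashed lines mark 2-fold. Stag2 is at 2.64 and 3.60 in the comparisons of NPC with ESC, and no gene passes 2-fold in the comparisons of ΔZF1 with WT.

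Between cell types, Stag2 and Wapl had the widest differences. The summed log2 ratio of NPC WT over ESC WT was -0.07 (-0.18 to 0.05), and the median member was at -0.13, against 0.04 over 6730 genes. Of the 10 members, 1 was at least 2-fold higher (11.5% of genes were) and 1 at least 2-fold lower (10.4% of genes were). The higher member was Stag2, at 2.64 (1.92 to 3.46). The lower was Wapl, at -1.01 (-1.38 to -0.66), which was close to the 2-fold limit. It was no longer past it with sites of at least the median score (-0.69), uridine sites (-0.97), sites away from noXL sites (-0.98) or exon sites (-0.02). Within 2-fold, Nipbl was at 0.52 (0.14 to 0.89) and Mau2 at 0.47 (0.03 to 0.90).

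The controls without UV gave Stag2 and Wapl again. In NPC noXL over ESC noXL, 1 of 10 members was at least 2-fold higher, against 11.1% of genes, and 1 at least 2-fold lower, against 12.3%. Stag2 was at 3.60 (2.46 to 5.31), with 40 sites against 4, and Wapl at -1.20 (-1.92 to -0.57), with 22 against 77. Within 2-fold, Pds5a was at 0.56 (0.19 to 0.94), with 113 sites against 113. The summed log2 ratio was 0.10 (-0.08 to 0.27), the median member was at -0.11, and the median of 3726 genes was -0.05. The differences of Stag2 and Wapl were thus also present without crosslinking, with overlapping intervals. The amount of each RNA was not analysed here, so its part in these values was not tested. In bulk libraries, RNA per cell and the number of cells that held an RNA cannot be told apart either.

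In Stag2, most NPC WT sites were exonic. NPC WT held 48 exon sites, 39 of them coding, and 11 intron sites, against 16 exon sites and 1 intron site in ESC WT. The scaled exon log2 ratio was 2.29 (1.54 to 3.16). In NPC noXL 25 of the 40 sites were intronic and 21 of these fell in intron 1, which held 8 sites in NPC WT. A lower intron share in NPC WT than in NPC noXL was common to 10 of 10 members and 65.5% of genes, and over all genic sites the shares were 26.9% and 42.6%.

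For Wapl the WT difference lay among intron sites. Intron sites numbered 192 in ESC WT and 20 in NPC WT, a scaled intron log2 ratio of -1.99 (-2.71 to -1.40). Exon sites numbered 99 and 57, and their scaled log2 ratio was -0.02 (-0.50 to 0.44). Intron 2 held 36 ESC WT sites and 3 NPC WT sites, intron 4 held 38 and 3, and intron 16 held 17 and 0. Without UV, Wapl introns held 39 sites in ESC noXL and 8 in NPC noXL, with an intron log2 ratio of -1.67 (-2.88 to -0.73), and the exon value was -0.75 (-1.69 to 0.05).

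**Figure D4:**
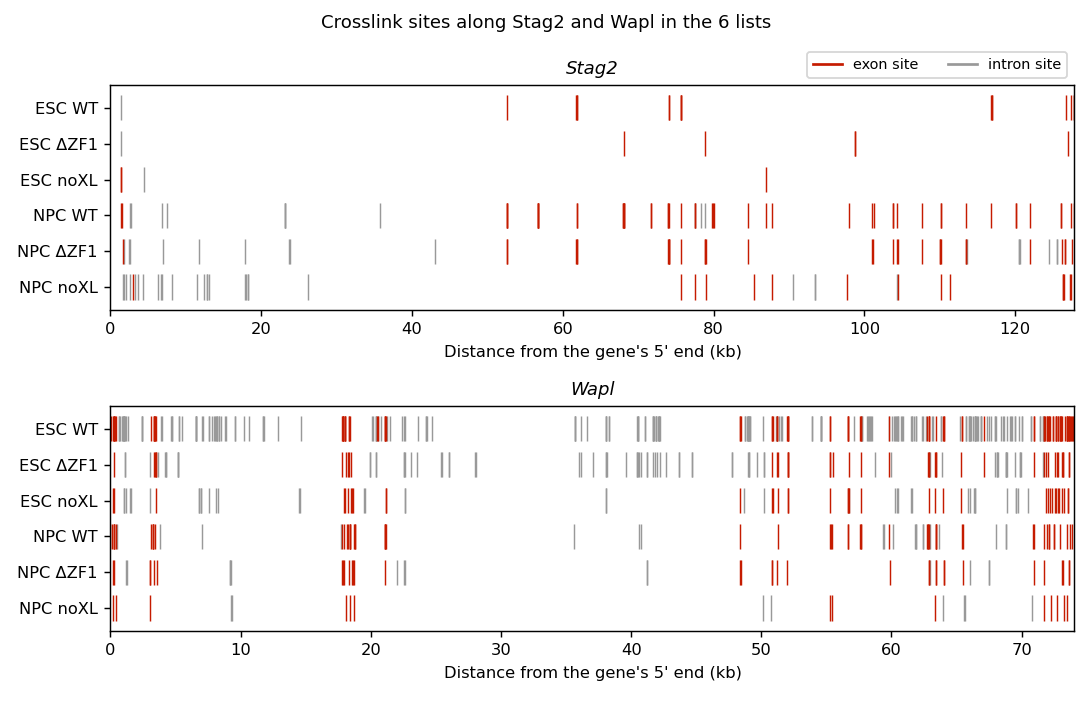
Position of each site along Stag2 (128 kb) and Wapl (74.1 kb), as distance from the 5′ end of the gene in kb, in the 6 lists. Red lines are exon sites and grey lines intron sites. The NPC lists hold Stag2 sites from intron 1 to the last exon, with 0 in the first kb, and the grey Wapl sites of ESC WT are mostly missing in NPC WT.

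Exon and intron ratios also differed in range over the members. Apart from Stag2, the exon log2 ratios of NPC WT over ESC WT of the other 9 members lay between -0.10 and 0.29, and each interval included 0. Of the 10 members, 8 had at least 20 intron sites in both lists together, and their intron ratios ran from -1.99 to 1.77, with 4 intervals off 0. Of all genes with as many intron sites, 48.9% had intron intervals off 0, and 22.1% had exon intervals off 0, so intervals lay off 0 more often in introns over the whole lists too. Lower in NPC WT introns were Wapl and Pds5b, the latter with 8 against 57 sites and a log2 ratio of -1.48 (-2.67 to -0.58). Without UV, Pds5b introns went the other way, with 18 against 16 sites and 0.64 (-0.30 to 1.60). Higher, once scaled to lists of unequal length, were Nipbl with 24 against 16 sites and a log2 ratio of 1.77 (0.90 to 2.69), and Mau2 with 21 against 26 sites and 0.91 (0.08 to 1.72). Mau2 introns had 10 against 18 sites without UV, at -0.31 (-1.46 to 0.72), and those of Nipbl 13 against 4, too few for a ratio. Stag2 (11 against 1) and Smc3 (12 against 7) had too few intron sites for a ratio.

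Summed over the 10 genes, introns held 49.3% (47.0 to 51.6) of ESC WT sites and 33.8% (30.9 to 37.0) of NPC WT sites. In genic sites as a whole these shares were 33.4% and 26.9%. Without UV the order was the other way, with 49.5% of ESC noXL and 58.9% of NPC noXL cohesin sites in introns. Scaled to intron sites, the summed log2 ratio of NPC over ESC was -0.30 (-0.49 to -0.11) for WT and 0.26 (0.02 to 0.50) for noXL. The members were not alike in this. In ESC WT 4 of the 10 (Smc3, Stag2, Nipbl and Mau2) had a lower intron share than all genic sites, and in NPC WT 5 of the 10 did (Smc3, Stag2, Nipbl, Wapl and Pds5b). Pds5a alone held 113 of the 310 intron sites of NPC WT.

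The comparison of WT with noXL lists set the cohesin sites beside the background without UV. In site numbers the summed log2 ratio was 1.53 for ESC WT over ESC noXL and 1.03 for NPC WT over NPC noXL, which follows the lengths of the lists. Scaling each list to its own genic sites removes any height over background that all genes share, so the scaled ratios show only whether these genes stood apart from other genes. The summed scaled log2 ratio of ESC WT over ESC noXL was 0.02 (-0.11 to 0.15) and the median member was at 0.01, against 0.02 over 6208 genes, with 0 of 10 members at least 2-fold higher (8.12% of genes) and 0 at least 2-fold lower (6.6% of genes). The summed log2 ratio of NPC WT over NPC noXL was -0.14 (-0.31 to 0.02) and the median member was at -0.10, against 0.03 over 4765 genes. There too 0 of 10 members were at least 2-fold higher (10.5% of genes) and 0 at least 2-fold lower (6.51% of genes). The WT lists in these comparisons are those already compared between cell types and with ΔZF1.

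Members nonetheless differed in small steps. Intervals lay off 0 in 19.6% of genes in ESCs and 21.5% in NPCs. In ESCs, Pds5a was at 0.43 (0.14 to 0.74) and Wapl at 0.40 (0.05 to 0.77), and Stag1 at -0.54 (-0.86 to -0.22). In NPCs, Stag1 was again below 0, at -0.67 (-1.09 to -0.24), and Stag2 was at -0.62 (-1.19 to -0.04). Intron ratios went both ways. The scaled intron log2 ratio of ESC WT over ESC noXL was 1.03 (0.56 to 1.55) for Wapl and 0.91 (0.52 to 1.35) for Pds5a, while their exon ratios were -0.31 (-0.82 to 0.25) and 0.01 (-0.40 to 0.45). Stag1 was below 0 in ESC introns, at -0.64 (-1.03 to -0.23). In that comparison 16.5% of genes had intron intervals above 0 and 11.9% below. In NPC WT over NPC noXL, 4 of 10 members had intron intervals below 0 (11.4% of genes) and 0 above (17.7% of genes). These were Smc1a at -0.78, Stag1 at -0.99, Stag2 at -1.63 and Pds5b at -1.59, while Pds5a introns were at 0.00 (-0.41 to 0.42).

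The base under the site separated UV from noXL lists. Over the 10 genes, uridine held 64.0% (61.8 to 66.2) of ESC WT sites and 67.5% (64.4 to 70.4) of NPC WT sites. Without UV it held 32.9% (29.3 to 36.7) in ESC noXL and 29.5% (25.4 to 33.8) in NPC noXL. The exons of the members are 22.7% to 31.0% uridine and their introns 27.7% to 35.5%, and the noXL shares lay near these values.

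In ESCs the uridine share was higher in WT than in noXL in 10 of 10 members, as in 95.8% of the genes that reached the 20-site minimum. The intervals were apart in 6, against 36% of genes. They overlapped for Smc1a, Smc3, Stag2 and Mau2. In NPCs it was higher in 10 of 10 (96.7% of genes), with intervals apart in all 10 (38.1% of genes). How far apart the intervals lie also depends on the number of sites, and nothing particular to the cohesin genes is read from these counts. The widest gap in NPCs was in Pds5b, with 68.8% in NPC WT and 18.4% in NPC noXL. The narrowest was in Stag1, with 67.3% and 37.3%.

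ΔZF1 lists lay between. Uridine held 52.5% (49.2 to 55.8) of cohesin sites in ESC ΔZF1 and 60.4% (56.3 to 64.3) in NPC ΔZF1. The share was lower than in WT in 9 of 10 members in ESCs, where Smc3 was the exception with 52.5% against 48.9%, and in 10 of 10 in NPCs. Among all genes it was lower in 77.7% in ESCs and 64.9% in NPCs. Intervals of WT and ΔZF1 were apart in ESCs in 2 members, Stag1 and Pds5a, against 5.01% of genes, and in NPCs in 0, against 1.46% of genes. Over all genic sites the share was also lower than in WT, at 49.2% in ESC ΔZF1 and 59.0% in NPC ΔZF1.

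**Figure D5:**
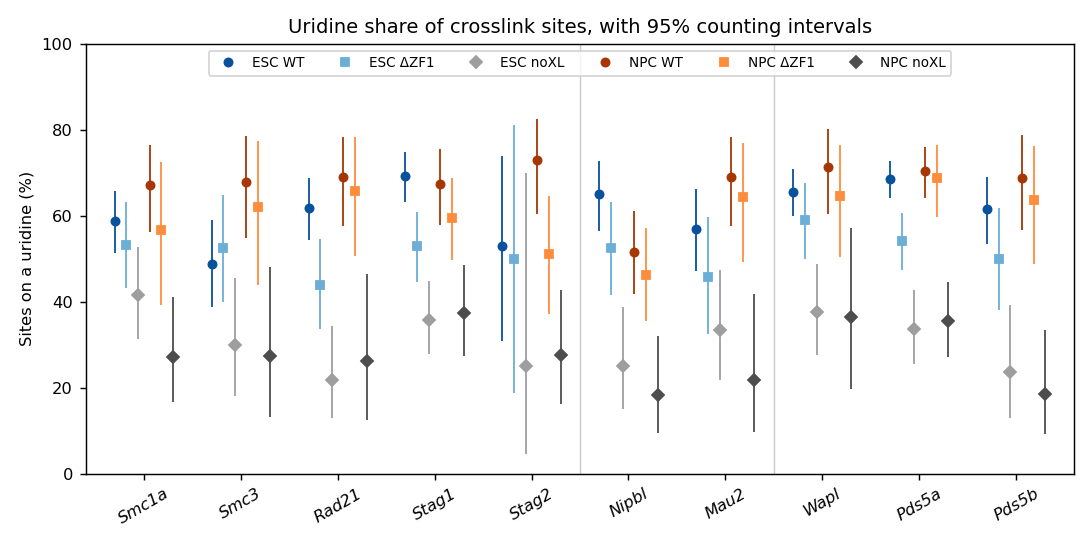
Percent of sites on a uridine for each cohesin gene in the 6 lists, with 95% counting intervals. The noXL lists lie at 18.2% to 41.6%, and the WT lists at 48.9% to 72.9%.

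Most cohesin positions, 4672 of 4936, were in 1 list only, a count that was not made for other genes. On the same nucleotide, 6.61% of ESC ΔZF1 sites had an ESC WT site, against 11.3% over all genic sites. For NPC ΔZF1 near NPC WT the share was 4.54% against 5.72%, and for NPC WT near ESC WT 10.5% against 14.3%. Within 5 nt on the same strand, 20.4% (17.9 to 23.1) of ESC ΔZF1 sites had an ESC WT site, against 3.64% when the sites were shifted by 500 or 1000 nt. For NPC ΔZF1 near NPC WT the share was 12.7% (10.3 to 15.7), with 2.01% after the shift, and for NPC WT near ESC WT it was 24.6% (21.9 to 27.5), with 3.79% after the shift. Over all genic sites these shares were 24.2%, 13.1% and 28.2%.

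These shares depend on the length of both lists, so they are not ranked against each other. Of ESC WT cohesin sites 5.98% (4.97 to 7.17) lay near an ESC noXL site, and of NPC WT sites 4.26% (3.13 to 5.77) lay near an NPC noXL site, with 1.4% and 1.01% after the shift. Over all genic sites these shares were 7.67% and 5.64%. The noXL lists are the shorter ones in these pairs. Among members, the share of ESC ΔZF1 sites near an ESC WT site was highest for Smc3 (39.0%) and lowest for Nipbl (11.5%). Of the Stag2 sites in NPC WT, 6.78% lay near one of the 17 ESC WT sites.

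A few positions recurred more often. With no such count made for other genes, 5 cohesin positions were in at least 4 lists, and all 5 were also in ESC noXL. They were the 5′ UTR positions of Mau2, Pds5b and Stag1 shown above, a 5′ UTR position of Rad21 37 nt from its start, and a position in the Smc1a introns.

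The other genes of the cohesin pathway, a list of 16, included 3 with far fewer sites in NPCs. In NPC WT over ESC WT, 12 of them had at least 20 sites, 0 were at least 2-fold higher (11.5% of all genes) and 3 at least 2-fold lower (10.4%), and their median log2 ratio was -0.19. Stag3, the meiotic STAG subunit, held 135 ESC WT sites and 4 NPC WT sites, a log2 ratio of -3.87 (-5.56 to -2.80). Esco2, the acetyltransferase that makes cohesion stable in S phase, held 85 and 6 sites, a log2 ratio of -2.72 (-4.09 to -1.76). Without UV its counts were 20 and 7, and the log2 ratio of -0.83 (-2.16 to 0.26) was not past 2-fold. Ddx11, a helicase needed for cohesion, held 57 and 10, a log2 ratio of -1.50 (-2.56 to -0.66). Without UV, Stag3 held 61 sites in ESC noXL and 1 in NPC noXL, a log2 ratio of -4.39 (-7.89 to -2.85). In that comparison 6 pathway genes had enough sites, and Ddx11 and Espl1 were the others at least 2-fold lower (12.3% of all genes), at -1.16 (-2.31 to -0.22) and -1.02 (-1.91 to -0.26).

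The other 9 pathway genes compared had log2 ratios of NPC WT over ESC WT from -0.49 to 0.83, and each interval included 0. Highest was Esco1, the other acetyltransferase, with 20 ESC WT sites and 19 NPC WT sites, at 0.83 (-0.07 to 1.72). Espl1, which encodes separase, held 91 ESC WT sites and 63 NPC WT sites, with a log2 ratio of 0.38 (-0.09 to 0.83), and Sgo2a, a shugoshin that protects centromeric cohesin, was lowest with 96 and 36 sites and a log2 ratio of -0.49 (-1.07 to 0.03). In ESC ΔZF1 over ESC WT, 11 pathway genes could be compared, and 0 were at least 2-fold higher (6.84% of all genes) or lower (5.45%). In NPC ΔZF1 over NPC WT, 8 could be compared. Ddx11 was at least 2-fold higher (5.76% of all genes), with 17 sites against 10, at 1.30 (0.25 to 2.45). Sgo1 (5 against 21) and Pttg1 (4 against 17) were at least 2-fold lower (7.36% of all genes), at -1.29 (-2.84 to -0.13) and -1.26 (-3.00 to 0.00). The interval of Pttg1 included 0. All 3 rested on fewer than 30 sites.

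The other SMC complexes, condensin and SMC5/6, had no gene past 2-fold in any of the 6 comparisons. Of 10 genes, 10 had at least 20 sites in NPC WT and ESC WT together, and 0 were at least 2-fold higher (11.5% of all genes) or lower (10.4%), with log2 ratios from -0.56 for Ncapd3 to 0.21 for Smc5. Among 7 DNA-binding architectural factors, 5 could be compared and 1 was at least 2-fold lower (10.4% of all genes), Ctcf itself, with 109 ESC WT sites, 28 NPC WT sites and a log2 ratio of -1.02 (-1.66 to -0.47). The rescue transgene also makes Ctcf RNA, so these sites need not be of the endogenous gene. In ESC WT over ESC noXL, where 6 could be compared, Zfp143, named after its value was seen, was at least 2-fold lower (6.6% of all genes) with 12 sites against 10. No architectural factor was past 2-fold in the other 4 comparisons.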

How the data were processed

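Per the study's methods, the authors demultiplexed and trimmed with Flexbar, used STAR for alignment to mm10 and UMI-tools for duplicate removal, and gave PureCLIP the merged reads of a condition. Versions are not given in the sources used here. The deposited value of each site is a PureCLIP score, which is not scaled to depth; it served here to pick best sites and, in 1 alternative, as a minimum. The authors' later step from sites to peaks was not repeated.

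Sites were assigned to GENCODE M21 genes on their own strand, and a base in several classes counted as coding exon first, then 3′ UTR, 5′ UTR, other exon and intron. Bases were read from GRCm38 with pysam 0.24.0. Log2 ratios used a pseudocount of 1, a minimum of 20 sites and a limit of 2-fold, scaled to the genic, exonic or intronic sites of each list. Intervals are Wilson 95% intervals of the counts without the pseudocount. The members and lists were chosen with earlier results of these data known. By the naming rule, all 10 members have values, and other pathway genes only with at least 50 sites in all; Chtf8 has overlapping gene entries and is given no value. The code was tested on simulated data. Alternatives changed the scaling, score minimum, base, position class, pseudocount, site minimum and sharing distance.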

Additional observations from a re-analysis of the deposited data

Results flagged for a closer look

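The intron sites of Smc3 differed in direction between the cell types in the same contrast. Their scaled log2 ratio of ΔZF1 over WT was 1.75 (0.52 to 3.12) in ESCs, with 12 sites against 7, and -1.67 (-3.69 to -0.25) in NPCs, with 3 against 12. It was 1 of 60 combinations of member, contrast and site class that were looked through for opposite directions with both intervals off 0. The difference between the cell types was not tested, and both values rest on fewer intron sites than the minimum of 20 used for the other ratios, which was not applied in this search.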

How the results depend on the processing

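No paired analysis was possible because each deposited list pools its libraries, which also prevents leaving any of them out. Raw site counts gave summed log2 ratios of -1.0, -0.68, -0.97, -0.47, 1.53 and 1.03 for ESC ΔZF1 over WT, NPC ΔZF1 over WT, NPC over ESC WT, NPC over ESC noXL, ESC WT over noXL and NPC WT over noXL, with 6, 1, 6, 4, 9 and 6 members past 2-fold. The sums follow the lengths of the lists. Stag2 went against them, with raw log2 ratios of 1.74 in NPC over ESC WT and 3.04 in NPC over ESC noXL.

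For NPC WT over ESC WT the summed log2 ratio was 0.10 with sites of at least the median score, -0.30 with intron sites and 0.18 with exon sites. Only 1 member was past 2-fold, in place of 2, with the higher scores, uridine sites, sites away from noXL sites or exon sites, since Wapl was then at -0.69, -0.97, -0.98 and -0.02. For NPC noXL over ESC noXL the sum was -0.14 with exon sites, where 0 members were past 2-fold, and 1 was with the higher scores, uridine sites or a minimum of 50 sites. Stag2 had too few sites for 3 of these 4. With the higher scores Stag2 was at 3.02 and Wapl at -0.99.

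For NPC ΔZF1 over WT intron sites gave -0.37 and 2 members past 2-fold, and for ESC ΔZF1 over WT they gave 1. ESC WT over noXL gave -0.17 with the higher scores, -0.12 with uridine sites, 0.28 with intron sites and -0.13 with exon sites, and 1 member past 2-fold with intron sites. NPC WT over noXL gave 0.19 with exon sites, 1 member past 2-fold with uridine sites and 2 with intron sites.

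With the higher scores uridines made up 66.9% of ESC WT, 56.6% of ESC ΔZF1 and 73.2% of NPC WT sites, and introns held 40.0% of ESC WT, 24.7% of NPC WT and 64.3% of NPC noXL sites. Among uridine sites the intron share was 58.8% in ESC noXL, 30.3% in NPC WT and 69.7% in NPC noXL. Shared sites on the same nucleotide and within 10 nt made up 6.61% and 27.2% (ESC ΔZF1 near WT), 4.54% and 17.6% (NPC ΔZF1 near WT), 10.5% and 32.2% (NPC WT near ESC WT), 1.34% and 10.3% (ESC WT near noXL) and 1.09% and 6.77% (NPC WT near noXL). The remaining 82 alternative values of the summed ratios, counts and shares stayed within the interval of the value reported or, for counts, within 1.5 times of it. The unknown read depth limits how far lists of unequal length can be compared.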

Other observations

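Repeat sequence made up a varying part of the intron sites. Soft-masked repeats cover 22.4% of the introns of Rad21 and 44.0% of those of Wapl, the lowest and the highest of the members. Of the intron sites of all 10 members, 38.2% were in repeats in ESC WT, 33.6% in ESC noXL, 29.0% in NPC WT and 34.1% in NPC noXL. In Stag1 the share was 53.6% of 125 intron sites in ESC WT and 20.0% of 40 in NPC WT, with 42.0% in ESC ΔZF1, 35.3% in NPC ΔZF1, 46.3% in ESC noXL and 42.9% in NPC noXL, while repeats cover 38.2% of its introns.

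Some intron sites were close to exons. Within 100 nt of an annotated exon lay 91 of the 882 cohesin intron sites in ESC WT, 39 of 310 in NPC WT and 34 of 264 in NPC noXL. In Pds5a, the member with most intron sites, these numbers were 29 of 253, 11 of 113 and 8 of 79.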
